A study of Mus musculus with 32 samples.

Results

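The genes described are 10 genes of heme breakdown and iron handling, taken as the rows of the count table whose Ensembl identifiers map to their symbols, and they are 10 of 34453 rows. They are *Hmox1*, *Blvra* and *Blvrb* of heme breakdown, *Ftl1* and *Fth1* of iron storage, *Slc40a1* and *Heph* of iron export, *Tfrc* and *Slc11a1* of iron uptake and transport, and *Fech* of heme synthesis. Their levels were measured by RNA sequencing of the retinal pigment epithelium (RPE), the monolayer behind the photoreceptors, from both eyes of 16 mice labelled *rd1*, a line that lacks functional *Pde6b* and loses its rods early in life. In each mouse, 1 eye had received AAV Best1 Nrf2, a virus carrying the human Nrf2 gene behind the RPE promoter Best1, together with AAV Best1 GFP (called Nrf2 eye), whereas its fellow eye had received AAV Best1 GFP alone (called control eye). By the methods, the Nrf2 virus had another capsid than the GFP virus, and the Nrf2 eye received more virus in total. Capsid and dose therefore cannot be told apart from Nrf2. RPE was collected at P20 from 7 mice and at P40 from 9 mice, giving 4 groups in which every eye carried GFP virus and the *rd1* label. The methods give fewer *rd1* pairs than the labels and also describe CD1 (WT) pairs at P40. The strain of the P40 mice therefore rests on the labels, and some of these mice may be CD1.

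Heme oxygenase 1 opens the heme ring to biliverdin and releases carbon monoxide and iron, and biliverdin reductases turn biliverdin into bilirubin. Freed iron is held in ferritin, a shell of light and heavy chains, or leaves the cell through ferroportin with the help of a ferroxidase, while transferrin receptor brings iron in. The RPE takes up iron from the choroid and digests heme-containing and iron-rich material shed by photoreceptors, and Nrf2 is a known activator of several of these genes in other tissues.

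Several of the messengers carry an iron-responsive element, a short hairpin that iron regulatory proteins bind when iron is scarce. In the 5' untranslated region the bound hairpin blocks translation, and in the 3' untranslated region it protects the messenger from decay, so that the messenger counts below do not measure the translation of the first kind. The elements are shown because they lie in different untranslated regions of the ferritins and ferroportin on the one side and of the uptake receptor on the other. They were searched in 1 transcript a gene, on the sense strand, as a C, any 5 bases, the loop CAGTG followed by A, C or T, and 5 bases that pair with the first 5, and the 17 bases are printed with the 6 loop bases in capitals.
*Ftl1*, 5' UTR, chr7:45459785-45459801, minus strand: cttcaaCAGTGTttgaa
*Fth1*, 5' UTR, chr19:9982738-9982754, plus strand: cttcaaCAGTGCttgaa
*Slc40a1*, 5' UTR, chr1:45925471-45925487, minus strand: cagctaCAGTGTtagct
*Tfrc*, 3' UTR, chr16:32631225-32631241, plus strand: cggaagCAGTGCcttcc
*Tfrc*, 3' UTR, chr16:32631604-32631620, plus strand: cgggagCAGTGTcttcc
*Tfrc*, 3' UTR, chr16:32631669-32631685, plus strand: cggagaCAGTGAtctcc
*Tfrc*, 3' UTR, chr16:32631716-32631732, plus strand: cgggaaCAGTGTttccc
The build is GRCm38 with GENCODE M21 transcripts. The pattern was present in 195 of 21704 coding transcripts, or 0.898%. Of the 10 genes, *Ftl1*, *Fth1* and *Slc40a1* held it once in the 5' UTR, and *Tfrc* held it 4 times in the 3' UTR. *Hmox1*, *Blvra*, *Blvrb*, *Heph* and *Slc11a1* held no match. *Fech* was left out of the listing of matches, so nothing is said of it here.

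Nrf2 binds DNA at the antioxidant response element, searched here as TGACNNNGC on both strands in the window from 250 bases before to 50 bases after each start in RefSeq (GRCm38.p6). Windows were given for *Slc11a1*, *Blvra*, *Blvrb*, *Ftl1*, *Tfrc* and *Fth1*. The letters were present in 4071 of 32851 windows of all genes (12.4%), in 12 of 72 windows of the wider heme and iron lists described below (16.7%), and in 1 of 9 windows of these 6 genes (11.1%). The gene holding it was *Blvra*, with the match on the reverse strand. Its surroundings are shown beside those of *Hfe*, chosen after its values were seen because outside the 10 genes it rose more with Nrf2 than any other listed gene, with the match in capitals. A match is no evidence of binding, and the windows hold no distal enhancers.
*Blvra*, chr2:127070592-127070632, plus strand: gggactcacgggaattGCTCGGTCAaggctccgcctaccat
*Hfe*, chr13:23710897-23710937, minus strand: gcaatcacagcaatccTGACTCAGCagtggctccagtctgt

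The authors deposited estimated counts per gene, with totals of 16548332 to 50542797 per library. Levels are CPM, counts relative to the total of a library after TMM scaling. The transgene had at least 1096 CPM in every library labelled Nrf2, with medians of 5511 CPM at P20 and 6995 CPM at P40, and medians of 47.5 CPM (P20) and 0.393 CPM (P40) in control eyes. At P20, the transgene was at about the same level in mouse 3 in the library labelled control (1109.8 CPM), contrary to its label, and in mouse 4 in the library labelled Nrf2 (1096 CPM), the lowest of the Nrf2 libraries. Both lay between the medians of the 2 groups. The squared difference between the profiles of this pair was 7.69 times that of sampling noise, against at least 43.3 times for any other 2 libraries. The results that rest on these libraries are therefore also given without P20 mice 3 and 4. The RPE markers summed to 13156 to 81411 CPM in every library, while 6 rod markers summed to at most 436 CPM. The sums of the rod markers had lower medians in Nrf2 eyes, of 84.5 CPM in control and 9.20 CPM in Nrf2 eyes at P20 and of 91.6 and 11.9 CPM at P40, and *Sag* was lower in the Nrf2 eye of every mouse. Taken singly, 0 of the 6 rod markers passed the threshold given below at P20, and 1 was lower at P40. At P40, 2 of the 6 were lower in the Nrf2 eye of every mouse, while *Gnat1* was higher in 5 of 9 mice. With Nrf2, 1 of 14 RPE markers was lower at P20 and 5 at P40, and at P40 8 of 12 tested markers of macrophages and microglia were higher. In RNA from tissue, fewer cells of a type and less RNA per cell cannot be told apart.

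Nrf2 raised 7 of the 10 genes at P20, namely *Hmox1*, *Blvrb*, *Ftl1*, *Fth1*, *Slc40a1*, *Heph* and *Slc11a1*, by 3.02-fold (*Fth1*) to 19.7-fold (*Hmox1*). Among all 16303 genes tested at P20, 2.93% were called higher and 3.41% called in either direction. The number called higher, 477, was 986 without mouse 4 and 102 to 316 without any other single mouse. The same 7 genes rose at P40, by 2.74-fold (*Heph*) to 27.7-fold (*Slc11a1*), where 3.33% of 16686 genes were called higher and 4.57% in either direction. *Blvra*, *Tfrc* and *Fech* did not pass the threshold in edgeR at either age, with log2 fold changes of 0.59, 0.51 and 0.13 at P20 and 0.47, 0.54 and 0.14 at P40. The median log2 fold change of the 10 genes was 1.81 at P20 and 1.94 at P40, against −0.04 and −0.03 for all genes tested. Each value comes from the quasi-likelihood test of edgeR, blocked by mouse, with an adjusted *P* value under 0.05 as the threshold, and all 10 genes passed the filter on low counts in every comparison. The 7 genes were higher in the Nrf2 eye of 7 of 7 mice at P20, where this held for 5.18% of all genes, and all but *Heph* were higher in 9 of 9 mice at P40, where it held for 3.48%.

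**Figure D1:**
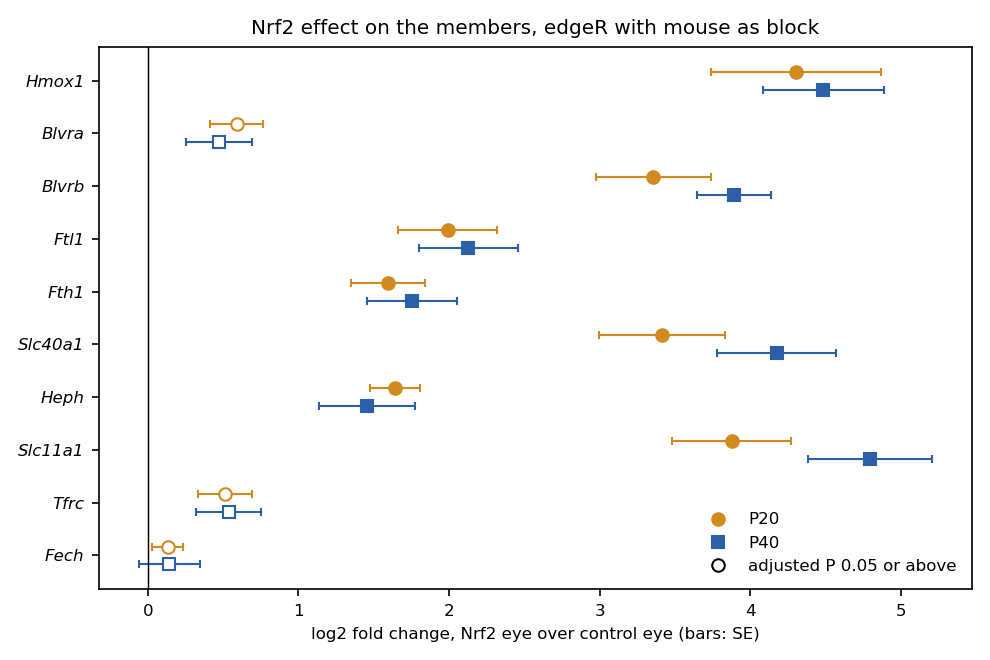
Log2 fold change of the Nrf2 eye over the control eye for the 10 genes (x axis), at P20 (circles, 7 mice) and P40 (squares, 9 mice), with bars of 1 SE from edgeR and open symbols where the adjusted *P* value was 0.05 or above. *Hmox1*, *Blvrb*, *Slc40a1* and *Slc11a1* lie between 3.36 and 4.79, *Ftl1*, *Fth1* and *Heph* between 1.46 and 2.13, and *Blvra*, *Tfrc* and *Fech* below 0.60.

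*Hmox1* (ENSMUSG00000005413, chr8:75093621-75100589, plus strand), the heme oxygenase that cells induce under stress, had 15.2 to 190.0 CPM in control eyes at P20 (median 33.5) and 181 to 1621 CPM in Nrf2 eyes (median 718). The groups overlapped only through the library labelled control of mouse 3 and the library labelled Nrf2 of mouse 4. The log2 fold change was 4.30 (adjusted *P* = 0.0102, SE 0.56), and 5.04 (adjusted *P* = 0.00292, SE 0.39) without mice 3 and 4, when control eyes reached 41.6 CPM and Nrf2 eyes had at least 648 CPM. At P40, it had 27.5 to 41.5 CPM in control eyes (median 31.9) and 226 to 1755 CPM in Nrf2 eyes (median 896). The groups did not overlap, the lowest values in Nrf2 eyes being those of mice 3 and 6, and the log2 fold change was 4.48 (adjusted *P* = 5.88e-05, SE 0.40). *Hmox2*, the constitutive heme oxygenase, had medians of 33.8 to 38.4 CPM in the 4 groups, and its log2 fold change was −0.07 (adjusted *P* = 0.752) at P20 and −0.01 (adjusted *P* = 0.988) at P40.

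*Blvrb* (ENSMUSG00000040466, chr7:27447978-27466144, plus strand), the reductase B that also reduces flavins, had 15.4 to 79.0 CPM in control eyes at P20 (median 26.9) and 82.0 to 535 CPM in Nrf2 eyes (median 281). The groups did not overlap, although the library labelled control of mouse 3 and the library labelled Nrf2 of mouse 4 were the closest, and the log2 fold change was 3.36 (adjusted *P* = 0.00921, SE 0.38), or 3.80 without these mice. At P40, it had 19.3 to 65.0 CPM in control eyes (median 32.2) and 204 to 694 CPM in Nrf2 eyes (median 550.2), a log2 fold change of 3.89 (adjusted *P* = 7.19e-06, SE 0.25). Every Nrf2 eye at P40 was above every control eye. *Blvra* (ENSMUSG00000001999, chr2:127070665-127097084, plus strand), the main biliverdin reductase of adult tissue, had medians of 10.1 CPM in control eyes and 14.8 CPM in Nrf2 eyes at P20, and 15.3 and 20.2 CPM at P40. Its groups overlapped at both ages, and the Nrf2 eye was above its fellow in 6 of 7 mice at P20 and 7 of 9 at P40. The adjusted *P* value was 0.121 at P20 and 0.388 at P40, but at P20 it was 0.0157 by DESeq2 (log2 fold change 0.61), 0.0038 by limma voom (0.76), 0.0291 in edgeR without mouse 4 (0.69) and 0.117 without mice 3 and 4 (0.66). On log2 CPM, *Blvrb* stood above *Blvra* by a median of 1.73 in control eyes and 4.43 in Nrf2 eyes at P20, and by 1.08 and 4.62 at P40.

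**Figure D2:**
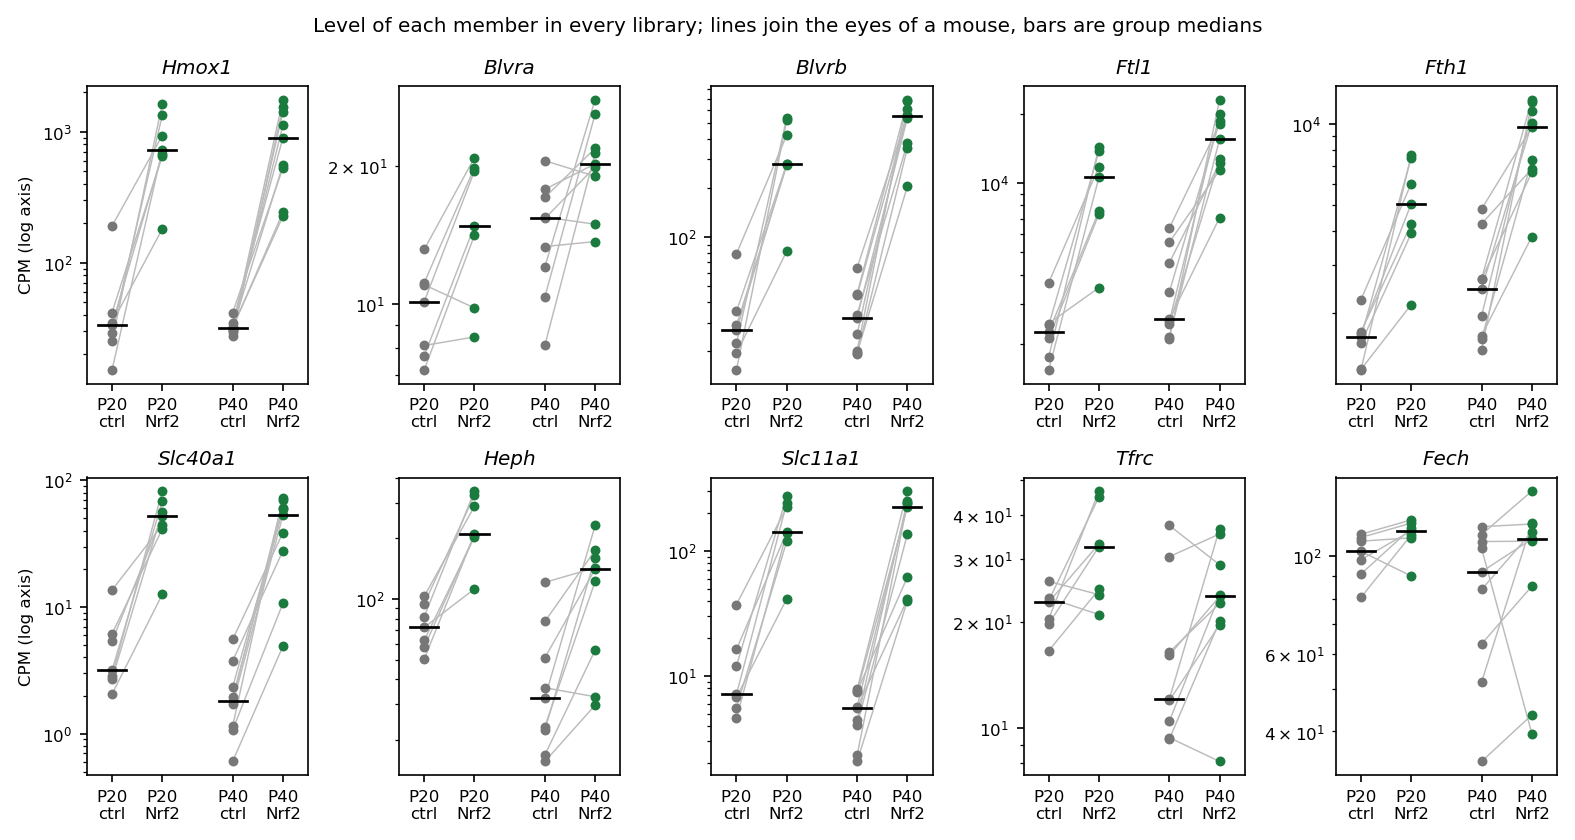
Level of each of the 10 genes in CPM (y axis, log scale) in the 32 libraries, by group (x axis, grey for control eyes and green for Nrf2 eyes), with lines joining the eyes of a mouse and bars at the group medians. The *Hmox1* medians are 33.5 and 718 CPM at P20 and 31.9 and 896 CPM at P40, and the *Fech* medians are 102 and 114 CPM at P20 and 92.1 and 109 CPM at P40.

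The ferritin chains were the most abundant messengers of the 10 in every group. *Ftl1* (ENSMUSG00000050708, chr7:45457944-45459884, minus strand), the light chain that promotes iron core formation, had 1546 to 3693 CPM in control eyes (median 2263) and 3519 to 14352 CPM in Nrf2 eyes (median 10596) at P20. The groups overlapped by the Nrf2 library of mouse 4 and the control library of mouse 3 alone, and the log2 fold change was 1.99 (adjusted *P* = 0.018, SE 0.33). At P40, it had 2115 to 6382 CPM in control eyes (median 2563) and 7073 to 23026 CPM in Nrf2 eyes (median 15535), with a log2 fold change of 2.13 (adjusted *P* = 0.00236, SE 0.33) and no overlap. *Fth1* (ENSMUSG00000024661, chr19:9980598-9985098, plus strand), the heavy chain with ferroxidase activity, had 1227 to 2232 CPM in control eyes (median 1619) and 2140.4 to 7633 CPM in Nrf2 eyes (median 5054) at P20, and 1456 to 4837 CPM (median 2454) and 3821 to 12282 CPM (median 9701) at P40. Its groups overlapped at P20 by the same 2 libraries as *Ftl1* and at P40 by the Nrf2 eye of mouse 1, and its log2 fold changes were 1.60 (adjusted *P* = 0.0145, SE 0.25) and 1.75 (adjusted *P* = 0.00463, SE 0.30).

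The 2 ferritin genes together took a median of 0.42% of all counts in control eyes and 1.57% in Nrf2 eyes at P20, and 0.493% and 2.16% at P40. The log2 CPM of *Fth1* minus that of *Ftl1* had a median of −0.52 in control eyes and −0.90 in Nrf2 eyes at P20, and of −0.46 and −0.88 at P40, and the ranges overlapped at both ages. The calls of both chains at P20 depended on single mice. *Ftl1* no longer passed the threshold in 5 of 7 fits that left out 1 mouse each, those without mouse 1, 3, 5, 6 or 7 (adjusted *P* up to 0.0815), and its log2 fold change was at least 1.82. *Fth1* no longer passed without mouse 3 or 7 (adjusted *P* up to 0.0641), and its log2 fold change was at least 1.43. Without mice 3 and 4 together, both passed (2.33, adjusted *P* = 0.0144, and 1.78, adjusted *P* = 0.0257). At P40 both passed in 9 of 9 such fits. A further 6 rows of the table share at least 5% of the 31-base words of *Ftl1*, and reads of such copies can be split between them. *Ftl1-ps1*, with 54.4% of the words shared, had 19.4 to 213 CPM and rose with Nrf2 as well (log2 fold change 1.76 at P20 and 2.25 at P40). The 6 rows held 0.535 to 1.04% of the ferritin counts of a library.

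*Slc40a1* (ENSMUSG00000025993, chr1:45908068-45926523, minus strand) encodes ferroportin, the exporter of cellular iron. It had 2.05 to 13.6 CPM in control eyes (median 3.15) and 12.6 to 82.3 CPM in Nrf2 eyes (median 52.0) at P20. The groups overlapped again by the control library of mouse 3 and the Nrf2 library of mouse 4, and the log2 fold change was 3.42 (adjusted *P* = 0.00921, SE 0.42), or 3.91 without these mice. At P40, it had 0.603 to 5.54 CPM in control eyes (median 1.82), down to 16 counts, and 4.91 to 72.6 CPM in Nrf2 eyes (median 53.0), a log2 fold change of 4.17 (adjusted *P* = 8.19e-05, SE 0.40). The overlap came from the Nrf2 eye of mouse 3 (4.91 CPM) and the control eye of mouse 1 (5.54 CPM), and in each of the 9 mice the Nrf2 eye was higher.

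*Heph* (ENSMUSG00000031209, chrX:96455359-96574485, plus strand) encodes hephaestin, a membrane ferroxidase that works with ferroportin. At P20, it had 50.3 to 103 CPM in control eyes (median 72.3) and 112 to 344 CPM in Nrf2 eyes (median 209.8), with no overlap and a log2 fold change of 1.64 (adjusted *P* = 0.00921, SE 0.17), or 1.85 without mice 3 and 4. At P40, it had 15.6 to 121 CPM in control eyes (median 32.3) and 29.7 to 232 CPM in Nrf2 eyes (median 141), and the groups overlapped widely. In 8 of 9 mice the Nrf2 eye was above the control eye, with a log2 fold change of 1.46 (adjusted *P* = 0.0208, SE 0.32). Of the 7 genes that rose, *Heph* was the only one whose call at P40 was lost without the block of mouse (1.43, adjusted *P* = 0.0792), and it was also lost in 5 of 9 fits that left out 1 mouse, those without mouse 2, 3, 4, 5 or 7. *Cp*, the soluble ferroxidase ceruloplasmin, had log2 fold changes of −1.05 (adjusted *P* = 0.155) and 0.30 (adjusted *P* = 0.842).

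*Slc11a1* (ENSMUSG00000026177, chr1:74375195-74386062, plus strand) encodes NRAMP1, a divalent metal transporter best known from the phagosomes of macrophages. It had 4.61 to 37.3 CPM in control eyes (median 7.13) and 41.4 to 276 CPM in Nrf2 eyes (median 141) at P20, with no overlap and a log2 fold change of 3.88 (adjusted *P* = 0.00921, SE 0.39), or 4.38 without mice 3 and 4. At P40, it had 2.07 to 7.83 CPM in control eyes (median 5.59) and 40.03 to 302 CPM in Nrf2 eyes (median 226), a log2 fold change of 4.79 (adjusted *P* = 4.05e-05, SE 0.41), with the lowest Nrf2 eyes being those of mice 3, 6 and 8. Every Nrf2 eye was above every control eye at both ages. The 13 markers of macrophages and microglia summed to 121 to 404 CPM in control eyes (median 246) and 149 to 727 CPM in Nrf2 eyes (median 178) at P20. At P40, they summed to 79.5 to 477 CPM (median 196) and 155 to 544 CPM (median 367), so the median sum was lower in Nrf2 eyes at P20 and higher at P40. Of the 12 markers tested, 0 were called at P20 and 8 were called higher at P40, with a median log2 fold change of 1.36 and 1.74. Of all 13 markers, 8 were higher in the Nrf2 eye of 9 of 9 mice at P40, among them *C1qa*, *Tyrobp*, *Adgre1* and *Lyz2*, and 0 in 7 of 7 mice at P20. At P20, *C1qa*, *C1qb*, *C1qc*, *Tyrobp*, *Fcer1g*, *Adgre1*, *Lyz2* and *Mrc1* were each higher in the Nrf2 eye of 6 of 7 mice. The lowest difference of each was in mouse 3, whose control library held the transgene (−1.72 for *C1qa*). *Aif1* and *Ptprc* were higher in 5 of 7 mice, and *Cx3cr1* and *Cd163* in 4 of 7. *Csf1r* was higher in the Nrf2 eye of 1 of 7 mice at P20 and 1 of 9 at P40. Values of these macrophage and microglia markers without P20 mice 3 and 4 are not given here. The part of these cells in the level of *Slc11a1* was not tested.

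*Tfrc* (ENSMUSG00000022797, chr16:32608920-32632794, plus strand) encodes transferrin receptor, and its transcript held 4 matches of the pattern searched for iron-responsive elements. It had medians of 22.7 CPM in control eyes and 32.5 CPM in Nrf2 eyes at P20 and of 12.1 and 23.5 CPM at P40. Its groups overlapped at both ages, and the Nrf2 eye was above its fellow in 5 of 7 and 7 of 9 mice. The log2 fold changes were 0.51 (adjusted *P* = 0.177, SE 0.18) and 0.54 (adjusted *P* = 0.282, SE 0.22), and at P20 limma voom gave an adjusted *P* value of 0.0121 (0.68), and edgeR without mice 3 and 4 gave 0.303 (0.48).

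*Fech* (ENSMUSG00000024588, positions 64452914 to 64490251 on the minus strand of its chromosome) inserts iron into protoporphyrin in the last step of heme synthesis. It had 80.5 to 112 CPM in control eyes and 90.1 to 121 CPM in Nrf2 eyes at P20, and its log2 fold change was 0.13 (adjusted *P* = 0.522, SE 0.10), or 0.061 without mice 3 and 4. At P40, it ranged from 34.2 to 116 CPM in control eyes and from 39.5 to 140.3 CPM in Nrf2 eyes, with a log2 fold change of 0.14 (adjusted *P* = 0.882, SE 0.20). *Fech* varied more between the eyes at P40 than at P20, from −1.39 in mouse 6 to 1.20 in mouse 5 on the log2 scale.

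The groups of Nrf2 and control eyes did not overlap for 3 of the 10 genes at P20 and 4 at P40, where 1.18% and 1.16% of all genes were higher without overlap. Without P20 mice 3 and 4, the count at P20 was 7, and the share of all genes was 6.13%. Scaled to the length of 1 transcript a gene, the levels in control eyes at P20 ran from *Ftl1* (mean 2398 CPM per kb, SD 715) and *Fth1* (1725, SD 366) through *Hmox1* (33.6, SD 38.9), *Blvrb* (31.6, SD 20.9), *Heph* (15.7, SD 4.14), *Fech* (15.3, SD 1.73), *Blvra* (8.41, SD 1.88), *Slc11a1* (5.54, SD 4.99) and *Tfrc* (4.43, SD 0.62) to *Slc40a1* (1.52, SD 1.19). The ranges of neighbours in this order overlapped except between *Fth1* and *Hmox1* and between *Fech* and *Blvra*. In Nrf2 eyes at P40, *Slc11a1* was the fifth (74.0 CPM per kb, SD 44.2) and *Slc40a1* the ninth (13.1, SD 7.40), and *Tfrc* was the lowest (4.96, SD 1.77).

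The size of the Nrf2 effect varied between mice, and the genes did not vary as one. Over the 16 mice, the difference between the eyes in log2 CPM ranged from 2.29 to 6.01 for *Hmox1*, from 2.08 to 5.10 for *Blvrb*, from 1.70 to 5.91 for *Slc40a1* and from 2.59 to 6.67 for *Slc11a1*. As a description over 16 mice whose libraries share depth and length trends, the differences of *Fth1* correlated with those of *Ftl1* (Pearson *r* = 0.936) and *Blvrb* (0.849), and those of *Slc11a1* with those of *Slc40a1* (0.811) and *Hmox1* (0.764), whereas *r* was 0.145 between *Slc11a1* and *Ftl1*. Over the 14 mice without P20 mice 3 and 4, these values were 0.940, 0.879, 0.734, 0.635 and −0.186 in the same order. With the difference in the transgene, *r* was 0.77 for *Slc11a1*, 0.636 for *Blvrb*, 0.635 for *Slc40a1*, 0.493 for *Hmox1*, 0.339 for *Ftl1* and −0.147 for *Blvra*, and over the 14 mice 0.652, 0.416, 0.456, 0.192, 0.0998 and −0.275. The difference in the transgene had a median of 6.74 at P20 and 13.6 at P40. Between the ages, the transgene in Nrf2 eyes had a log2 fold change of 0.19 (adjusted *P* = 0.766 in edgeR). The difference thus also depends on age, on the few transgene counts in control eyes and on the prior count. These *r* values therefore do not measure a response to the dose of Nrf2. Among all genes tested, the differences most like those of *Hmox1* were those of *Lix1* (*r* = 0.934), *Acox2* (0.924) and *Tmem158* (0.916). Those most like *Fth1* were *Cyb5a* (0.957), *Ftl1* (0.936) and *Rexo2* (0.912), and those most like *Ftl1* were *Gm15590* (0.957), *Gm8814* (0.947) and *Tmem37* (0.941), and over the 14 mice the *r* values with these 9 genes were 0.881 to 0.949. *Gm15590* is a processed pseudogene that shares 28.3% of the 31-base words of *Ftl1*, so reads of both may be split between them.

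**Figure D3:**
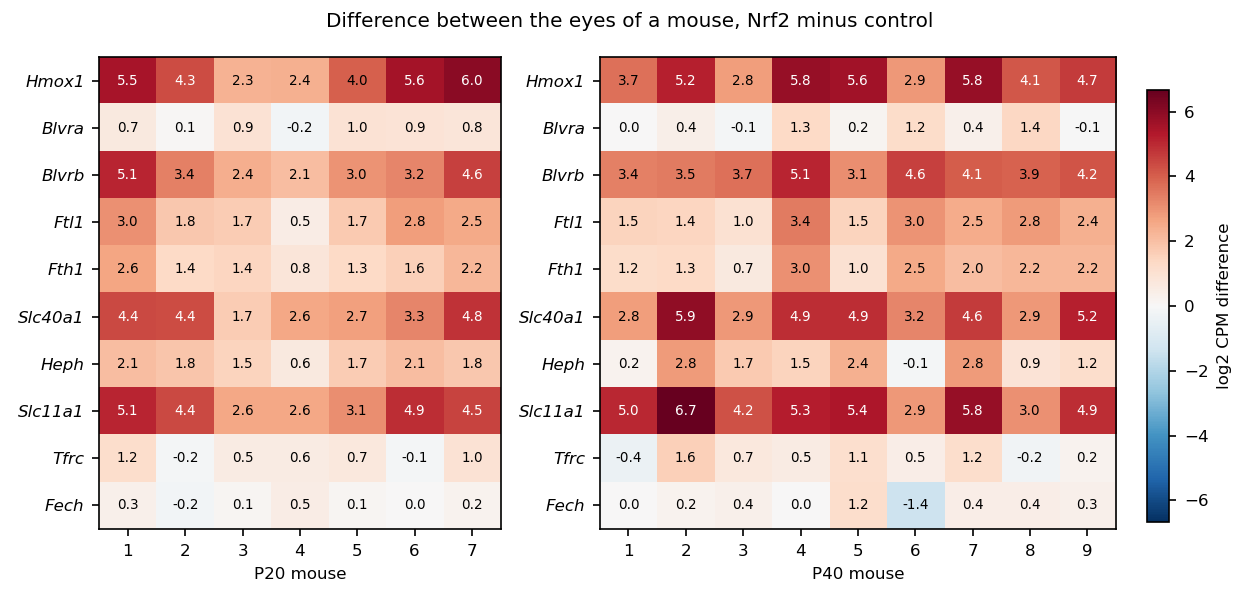
Difference between the eyes of each mouse, Nrf2 minus control in log2 CPM (colour and printed value), for the 10 genes (rows) in the 7 mice at P20 (left) and the 9 mice at P40 (right). *Hmox1*, *Blvrb*, *Ftl1*, *Fth1*, *Slc40a1* and *Slc11a1* are positive in every mouse, with the lowest *Hmox1* value, 2.29, in P20 mouse 3, and *Heph* is below 0 in P40 mouse 6 alone.

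The wider pathway was described with 7 lists of 69 genes, the 10 genes included. Of the 55 other genes tested at each age, 4 rose and 0 fell with Nrf2 at P20, and 4 rose and 1 fell at P40. These were 7.27% and 9.09% of the other genes tested, against 3.41% and 4.57% of all genes. The lists were chosen with earlier results of these data known, so these shares, and those with age below, are a description only. Without P20 mice 3 and 4, 4 rose and 0 fell at P20. *Hfe*, whose product restrains iron uptake through transferrin receptor and acts on hepcidin signalling, had 11.8 to 57.8 CPM in control eyes and 59.3 to 397 CPM in Nrf2 eyes at P20. The log2 fold change of *Hfe* was 2.96 (adjusted *P* = 0.0136) at P20, or 3.50 without mice 3 and 4, and 2.79 (adjusted *P* = 7.15e-05) at P40. Its groups did not overlap at either age. *Pgrmc1*, a heme-binding membrane protein, rose by 1.83 and 1.92 (adjusted *P* = 0.0105 and 0.000286), and *Steap2*, a metalloreductase, by 1.08 and 1.28 (adjusted *P* = 0.0252 and 0.0107). *Steap1* of the same family rose by 1.81 at P40 (adjusted *P* = 0.00045) and had 1.22 at P20 (adjusted *P* = 0.141). *Flvcr1*, a heme exporter, rose by 1.11 at P20 (adjusted *P* = 0.0134) and had 0.54 at P40 (adjusted *P* = 0.601). *Flvcr2* fell by 0.87 at P40 (adjusted *P* = 0.0342) and was lower in the Nrf2 eye of 8 of 9 mice, and without the block of mouse its value was −1.07 (adjusted *P* = 0.161).

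By list and with the 10 genes left out, 0 of 8 genes of heme synthesis, 0 of 3 of iron storage and delivery, 0 of 3 of iron sensing and 0 of 11 of mitochondrial iron and iron-sulfur clusters were called at either age. Heme transport and breakdown had 2 of 12 called higher at P20, and 1 higher and 1 lower at P40. Iron uptake and reduction had 1 of 13 and 2 of 13 called higher, and iron export and its regulation had 1 of 5 at each age. *Aco1* and *Ireb2*, which encode the iron regulatory proteins that bind the hairpins printed above, had log2 fold changes of −0.22 and −0.13 at P20 and −0.50 and −0.26 at P40, with adjusted *P* values of 0.151 or above. *Ncoa4*, the receptor for ferritin breakdown, had −0.11 and −0.24.

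**Figure D4:**
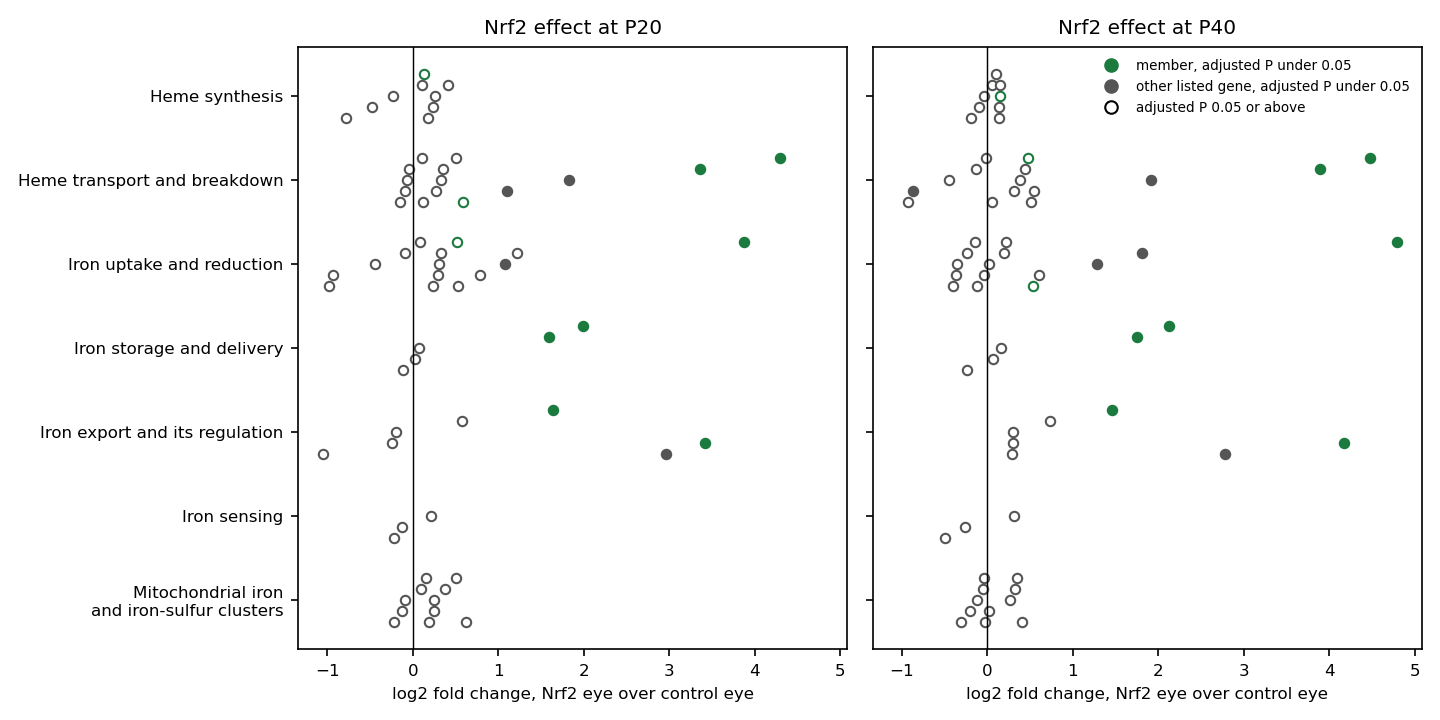
Log2 fold change of the Nrf2 eye over the control eye (x axis) for each tested gene of the 7 heme and iron lists (rows, spread vertically only to separate points), at P20 (left) and P40 (right), with the 10 genes in green, other genes in grey and open symbols for an adjusted *P* value of 0.05 or above. Apart from the 10 genes, 4 filled points lie above 0 at P20 and 4 at P40, *Hfe* being the highest at 2.96 and 2.79.

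The comparisons of age use the same libraries as those of Nrf2, from different mice at each age. The methods describe CD1 pairs at P40 alone. If some P40 mice are CD1, strain cannot be told apart from age here or in the difference of the Nrf2 effect between ages. Between P20 and P40, 0 of the 10 genes passed the threshold in control eyes in edgeR, while 14.8% of 16832 genes did. The number behind that share, 2483 genes, was 158 of 17254 without P20 mice 3 and 4, and 473 (without P20 control 5) to 4273 (without P40 control 1) when 1 library was left out. At an unadjusted *P* value under 0.05 there were 5 genes, and DESeq2 and limma voom each called 3, where they called 26% and 22.3% of all genes. *Blvra* had a log2 fold change of 0.63 (adjusted *P* = 0.051, SE 0.21), *Fth1* of 0.80 (adjusted *P* = 0.0674, SE 0.29) and *Ftl1* of 0.69 (adjusted *P* = 0.11, SE 0.30), all with higher medians at P40. *Slc11a1* had −1.23 (adjusted *P* = 0.0524, SE 0.41), *Slc40a1* −1.15 (adjusted *P* = 0.0868, SE 0.46) and *Heph* −0.73 (adjusted *P* = 0.157, SE 0.36), with lower medians, and without P20 mice 3 and 4 these were −0.76, −0.82 and −0.64. *Hmox1* had −0.63 (adjusted *P* = 0.255), and 0.17 in DESeq2 or when P20 mouse 3 was left out of the control eyes. The groups overlapped for all 10 genes, whereas 1.9% of all genes had groups that did not.

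The libraries of the 2 ages differed in a trend with transcript length, which moves with these values. Across genes, the slope of log2 CPM per doubling of length had a median of 0.116 (P20) and −0.0928 (P40) over control eyes, and of 0.0878 and −0.131 over Nrf2 eyes. With a correction for length and GC content, chosen after the data were seen, the log2 fold changes in control eyes became 0.09 for *Blvra*, 0.16 for *Fth1* and 0.25 for *Ftl1*, whose transcripts have 929 to 1160 bases, and stayed at −1.04 for *Slc11a1* and −1.07 for *Slc40a1*. *Blvrb* and *Fech* changed sign, and 0 of the 10 genes were called. The Nrf2 effects at P40 moved little, to 4.48 for *Hmox1*, 2.08 for *Ftl1* and 1.46 for *Heph*, and the number called stayed at 7 at each age. The Nrf2 eyes of P40 mice 3, 6 and 8, with slopes of −0.248, −0.176 and −0.424 by the same measure, were the lowest of the 9 in *Slc11a1*, *Slc40a1*, *Heph* and *Fech*, while that of mouse 5, with −0.185, was not among the lowest.

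In Nrf2 eyes, 0 of the 10 genes passed between the ages in edgeR, while 0.502% of 16745 genes did, and groups without overlap were seen for 0 of the 10 genes and 0.729% of all genes. There were 4 at an unadjusted *P* value under 0.05, and DESeq2 and limma voom each called 1, *Fth1* and *Heph* respectively, where they called 10.9% and 13.2% of all genes. The largest values were −0.99 for *Heph* (adjusted *P* = 0.123, SE 0.37) and 0.81 for *Fth1* (adjusted *P* = 0.122, SE 0.30), which became −0.85 and 0.31 with the correction. *Hmox1* and *Slc11a1* had 0.09 and 0.03, and both signs turned under some settings.

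**Figure D5:**
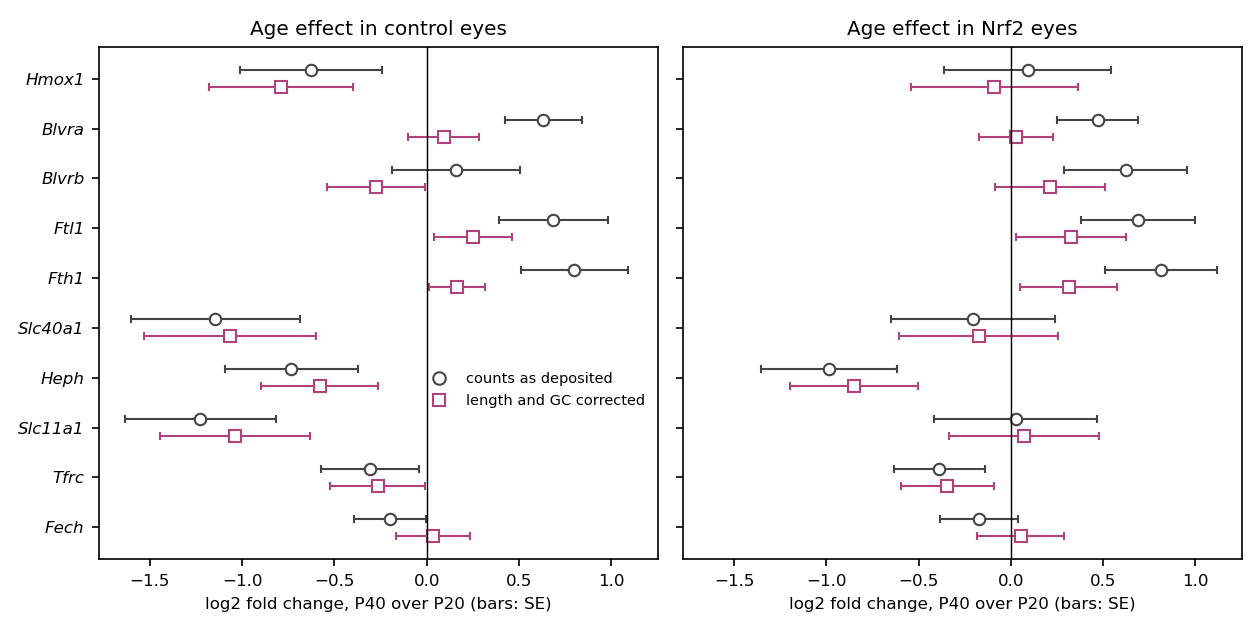
Log2 fold change of P40 over P20 (x axis) for the 10 genes in control eyes (left) and Nrf2 eyes (right), from the counts as deposited (circles) and after the correction for transcript length and GC content (squares), with bars of 1 SE and open symbols since 0 values passed an adjusted *P* value of 0.05. The corrected values of *Blvra*, *Ftl1* and *Fth1* lie nearer to 0, at 0.09, 0.25 and 0.16 in control eyes, and those of *Fech*, of *Blvrb* in control eyes and of *Hmox1* in Nrf2 eyes lie on the other side of 0.

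Of 56 other genes of the wider lists tested, 6 rose and 5 fell with age in control eyes, or 19.6%, against 14.8% of all genes, and without P20 mice 3 and 4 the number called was 0. *Alad* and *Urod* of heme synthesis rose by 0.58 and 0.46 (adjusted *P* = 0.0453 and 0.0361), and *Alas2* and *Ppox* of the same pathway fell by 1.46 and 0.81 (adjusted *P* = 0.0187 and 0.0277). *Alas2*, the erythroid first enzyme, is a red cell transcript like *Slc4a1*, which had 0 counts in 7 of 9 control libraries at P40 and in 0 of 7 at P20, while 7 blood markers summed to 527 to 3451 CPM at P20 and 318 to 3148 CPM at P40. The part of blood in the change of *Alas2* was not tested. *Iscu*, *Glrx5* and *Fdx1l* of iron-sulfur cluster assembly rose by 0.91, 0.89 and 0.82 (adjusted *P* = 0.0242, 0.0286 and 0.0391). *Abcb10* and *Cybrd1* fell by 0.91 and 1.51, and *Pcbp1* fell by 0.36. *Hp* was called at 4.07, a value that depends on the prior count, since it had 0 counts in 5 of 7 libraries at P20 and at most 0.484 CPM there. With the length and GC correction, *Alas2*, *Ppox* and *Glrx5* passed and the other 8 did not. *Cybrd1*, a ferric reductase, was the only listed gene called with age in Nrf2 eyes, where it fell by 1.74 (adjusted *P* = 0.0459).

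The Nrf2 effect at P40 minus that at P20 passed the threshold for 0 of the 10 genes in edgeR, DESeq2 or limma voom, with 0 at an unadjusted *P* value under 0.05 in edgeR, and for 0.00557% of 17959 genes. The largest differences over all 16 mice were 0.92 for *Slc11a1* (SE 0.56, unadjusted *P* = 0.119, adjusted *P* = 1.00) and 0.77 for *Slc40a1* (SE 0.57, unadjusted *P* = 0.197, adjusted *P* = 1.00). Without P20 mice 3 and 4 these were 0.39 and 0.24, smaller in size than that of *Hmox1* (−0.59), and limma voom gave 1.54 and 1.13. For *Ftl1* and *Fth1* the differences were 0.14 (SE 0.44) and 0.17 (SE 0.38), and both signs turned without P20 mice 3 and 4.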

How the data were processed

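RNA of RPE from both eyes of 16 mice was amplified and sequenced. The authors describe both a route through STAR and featureCounts on mm10 and one through Salmon (0.9.1, per the submitters' processing notes) with Ensembl release 91. The authors deposited estimated counts per gene, rounded to whole numbers, and the table does not name its counter. Estimated counts were not normalized, so amplification, transcript length and copies of a gene affect them. The tests were run with edgeR 4.0.16 in R 4.3.3 (filterByExpr, TMM, quasi-likelihood test without robust dispersion), with Benjamini-Hochberg adjustment over all genes tested. SE is the log2 fold change divided by the root of F. Log2 CPM used a prior count of 2. The mouse was a block within an age, and none was used between ages, whose mice differ. The pairing comes from the labels, and the deviations of both eyes of a mouse had a mean correlation of 0.0214 (P20) and 0.0991 (P40). Alternatives were DESeq2 1.42.0, limma 3.58.1 voom with quality weights, RLE, no filter, at least 10 counts in every library, no block, leaving out each mouse or eye, P20 mice 3 and 4 left out, and, added later, a length and GC correction by splines. Tests were first run on simulated data. The 10 genes and the lists were chosen with earlier results of these data known. All 10 genes were named in each comparison, and from the lists each gene past the threshold, at most the 10 largest. Which library was sequenced in which of the 2 runs is not given in the sources used here. The library titles begin with M at P20 and with A at P40, and whatever this letter stands for cannot be told apart from age. Nothing says that libraries of a group came from separate litters, so *P* values measure the spread between these mice.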

Additional observations from a re-analysis of the deposited data

Results flagged for a closer look

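In each of 40 sets of libraries (10 genes in 4 groups), the highest and lowest library were compared with the others on the log2 scale by Dixon's test, which chance alone passes in about 5% of sets, and 6 stood apart. In the library labelled control of P20 mouse 3, *Hmox1* had 190.0 CPM, against 15.2 to 41.6 CPM in the other control eyes. In the library labelled Nrf2 of P20 mouse 4, *Hmox1* was at 181 CPM where other Nrf2 eyes had 648 to 1621 CPM. *Blvrb* was at 82.0 CPM (others 275 to 535 CPM), and *Slc40a1* at 12.6 CPM (others 41.3 to 82.3 CPM). These are the 2 libraries with about the same transgene level, between the medians of control and Nrf2 eyes. *Fech* had 90.1 CPM in the Nrf2 eye of P20 mouse 2, against 109.9 to 121 CPM in the others. *Tfrc* had 8.07 CPM in the Nrf2 eye of P40 mouse 8, against 19.6 to 36.6 CPM in the others, and this library had the steepest slope with transcript length (−0.424). The cause was not tested.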

How the results depend on the processing

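*Hmox1*, *Blvrb*, *Slc40a1* and *Slc11a1* passed the threshold for Nrf2 at both ages under every alternative run. The number of the 10 genes called was 5 to 8 at P20 and 6 to 7 at P40 when 1 mouse was left out, the 5 being reached without mouse 3 or mouse 7. Without the replicate block, it was 6 at P40, since *Heph* (1.43) was lost, and the block changed no other call of Nrf2 among the 10 genes. With age in control eyes, DESeq2 and limma voom called 3, RLE scaling 1 and a minimum of 10 counts 2, where 0 were called in edgeR, and leaving out 1 library gave 0 to 4, with 4 without the control eye of P40 mouse 1, 3 without mouse 4, 2 without mouse 8, and 1 without mouse 6, mouse 9 or P20 mouse 6. In Nrf2 eyes DESeq2 and limma voom called 1.

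Signs turned for values that passed no threshold. With age in control eyes, *Hmox1* became 0.17 in DESeq2 and 0.21 without P20 mice 3 and 4, and ranged from −0.79 to 0.17 when 1 library was left out. *Blvrb* became −0.17 in limma voom and −0.27 with the length and GC correction (−0.072 to 0.53 with 1 library left out), and *Fech* 0.035 with that correction. In Nrf2 eyes, *Hmox1* became −0.089 with the correction and −0.11 without mice 3 and 4 (range −0.11 to 0.31), *Slc40a1* 0.10 in limma voom, *Fech* 0.054 with the correction, and *Slc11a1* −0.094 without mice 3 and 4 (range −0.17 to 0.18). Comparing the Nrf2 effect at both ages, leaving out mice 3 and 4 gave −0.59 for *Hmox1*, −0.23 for *Ftl1* and −0.053 for *Fth1* (ranges −0.16 to 0.46, −0.10 to 0.32 and 0.01 to 0.34). *Fech* became −0.0097 in DESeq2, −0.0095 with RLE, −0.0081 with the minimum of 10 counts and −0.031 with the correction (range −0.13 to 0.16). *Tfrc* became −0.19 in limma voom and −0.076 without the replicate block (range −0.094 to 0.15). The cause was not tested. Depth limits *Slc40a1* most, with 16 counts in its lowest library.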
